A study of Mus musculus with 10 samples.

Results

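Heterotrimeric G proteins carry signals from receptors at the cell surface. The genes described here are the 10 genes of their beta and gamma subunits that were selected by symbol in the deposited gene table. They comprise 4 beta genes, Gnb1, Gnb2, Gnb4 and Gnb5, and 6 gamma genes, Gng2, Gng5, Gng7, Gng10, Gng11 and Gng12, out of 55359 genes in the table. Gng2 is a gene that the study itself followed in differentiating myoblasts. Poly(A) RNA was sequenced from C2C12 cells, a mouse myoblast line that fuses into myotubes when serum is lowered. Cells were transfected with 100 nM of a scrambled siRNA (si-Control, 5 libraries) or of an siRNA against Fndc1 (si-Fndc1, 5 libraries), and all of them were kept for 4 days in medium with 2% horse serum. The design text of the series gives an earlier harvest after transfection than the sample labels, which were followed here. Both groups come from the same cell line, and separate cultures behind the libraries are not given in the sources used here, so that p-values measure only the spread between these libraries. The methods of the study describe fewer RNA-seq libraries than the 10 used here.

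A beta subunit and a gamma subunit form a dimer that does not come apart in the cell. With an alpha subunit the dimer makes the trimer that a receptor activates, and once released it acts on enzymes and channels of its own. The products of Gnb1, Gnb2 and Gnb4 are closely related beta subunits, whereas the product of Gnb5 pairs chiefly with a group of RGS proteins, the proteins that speed the shut-off of alpha subunits. The dimer is held at the membrane by a lipid attached to the end of the gamma subunit.

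That end is where the gamma genes differ in kind, and it is shown here for the 6 of them. Each line gives the last 30 coding bases, 5′ to 3′, from GENCODE vM1 on the NCBIM37 build, with the 4 final codons before the stop in capitals. The lipid is attached at the cysteine of the first of these codons, and the last codon directs which lipid is used.

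Gng2: gagaagaagttcttcTGCGCCATCCTTtaa
Gng5: agaccccagaaagtcTGCTCCTTTTTGtag
Gng7: aaagacaaaaagcctTGCATAATTCTCtag
Gng10: cgggagcccaggtccTGTGCTCTACTTtga
Gng11: aaagaaaagggcagcTGTGTCATTTCAtaa
Gng12: aaggataagaagaccTGCATCATCTTAtag

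These stretches lie at chr14:20695029-20695058 on the minus strand for Gng2, chr3:146166320-146166349 on the plus strand for Gng5, chr10:80414366-80414395 on the minus strand for Gng7, chr4:59052195-59052224 on the plus strand for Gng10, chr6:3958131-3958160 on the plus strand for Gng11 and chr6:66967554-66967583 on the plus strand for Gng12. Each is coding sequence within a single exon. In 5 of the genes the last codon is a leucine codon, the form known for a geranylgeranyl tail. Gng11 alone among them ends on a serine codon, the form known for the shorter farnesyl tail. Over the whole coding sequence the gamma genes were 44.7% to 69.4% identical in pairs. Gnb1, Gnb2 and Gnb4 were 75.6% to 77.0% identical to each other and 50.1% to 52.4% identical to Gnb5. The longest coding run shared by any pair was 27 bases, between Gnb1 and Gnb4.

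Summed over genes, the si-Control libraries held 66771605 to 75995168 counts and the si-Fndc1 libraries 56332844 to 72839369. Fndc1 itself, the targeted gene, had mean levels of 27.8 ± 2.04 and 20.9 ± 1.70 FPKM (SD, n = 5 each) in control and knockdown cells, where FPKM are fragments scaled to the length of the gene and the depth of the library. The groups did not overlap. Its log2 fold change was -0.40 (SE 0.07, edgeR adjusted p = 0.000934), and the ratio of the mean FPKM was 0.752. In a fit with an offset for GC content and length the log2 fold change was smaller, at -0.22 (edgeR adjusted p = 0.0113). The sum of the 14 myotube markers was 7389 to 7821 FPKM in the control libraries against 7701 to 8522 FPKM after knockdown. Of these markers 4 were called higher (Mylpf, Ckm, Mymk and Myod1), 1 lower (Ttn) and 9 were not called. Over all tested genes 17.3% were called higher and 17.2% lower. With the offset 4 were again called higher and 1 lower (11.6% and 11.0% of all genes), but the genes differed. Mymk (0.20, edgeR adjusted p = 0.106) and Ttn (0.07, 0.450) were then not called. Des was called higher (0.11, 0.0313) and Myog lower (-0.17, 0.0249). Single markers ranged in control mean from 1.99 FPKM (Myh8) to 1971 FPKM (Mylpf), and Mylpf alone had a mean of 2619 FPKM after knockdown. Nothing on the degree of differentiation is read from the sum or the counts. Transcripts of liver genes also differed between the groups. All 13 tested liver markers were higher in si-Fndc1, and the summed level of the list of 14 was 0.0443 to 6.40 FPKM in control libraries against 54.6 to 188 FPKM after knockdown, at most 0.0370% of the counts. The part of this signal in the results on G protein genes was not tested. Of the neuronal markers 2 and of the blood markers 1 passed the filter, whereas no endothelial marker passed it. None of them was called without the offset for GC content and length. With it Syn1 of the neuronal list was called higher, at 0.20 (edgeR adjusted p = 0.0116). Markers with 0 counts in all 10 libraries were 1 of 7 endothelial (Cdh5), 3 of 7 neuronal (Snap25 among them) and 3 of 8 blood ones (Ptprc among them). Others had reads, such as Tek of the endothelial list (30 to 103 counts per library) and Hba-a1 of the blood list (28 to 116). Hbb-bs, also of the blood list, had at most 1 count in control libraries and up to 36 after knockdown. Tubb3 (36.1 and 33.8 FPKM) and Syn1 (7.19 and 7.32 FPKM) of the neuronal list were present in both groups. The summed level was 0.251 to 0.395 against 0.250 to 0.701 FPKM for the 7 endothelial markers, 41.9 to 44.7 against 38.2 to 45.5 FPKM for the 7 neuronal ones and 0.749 to 1.91 against 1.72 to 2.59 FPKM for the 8 blood ones.

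Of the 10 members, 9 passed the filter of a mean of 0.5 FPKM and were tested. After Fndc1 knockdown 4 of them were called higher (Gng5, Gng10, Gng2 and Gnb1) and 1 lower (Gnb5) at an edgeR adjusted p below 0.05, whereas Gnb2, Gnb4, Gng11 and Gng12 were not called. Calls were common in these libraries: 34.4% of all 13548 tested genes were called, 17.3% as higher and 17.2% as lower. The median log2 fold change was 0.12 over the 9 tested members and 0.00 over all tested genes. It was -0.06 over the 4 beta genes and 0.27 over the 5 tested gamma genes, and these 5 were all higher on average. Gng7, the gamma gene not tested, had a lower mean after knockdown (0.230 and 0.197 FPKM). With an offset for GC content and length Gng12 was lower, at -0.11. These counts and medians describe the members, and nothing particular to the family is read from them. The called genes lie at chr3:146205562-146211327 (Gng5), chr4:59035088-59041903 (Gng10), chr14:19922627-20027317 (Gng2), chr4:155575821-155643726 (Gnb1) and chr9:75213570-75253158 (Gnb5) in the coordinates of the deposited table, for which the submitters' processing notes name GRCm39.

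**Figure D1:**
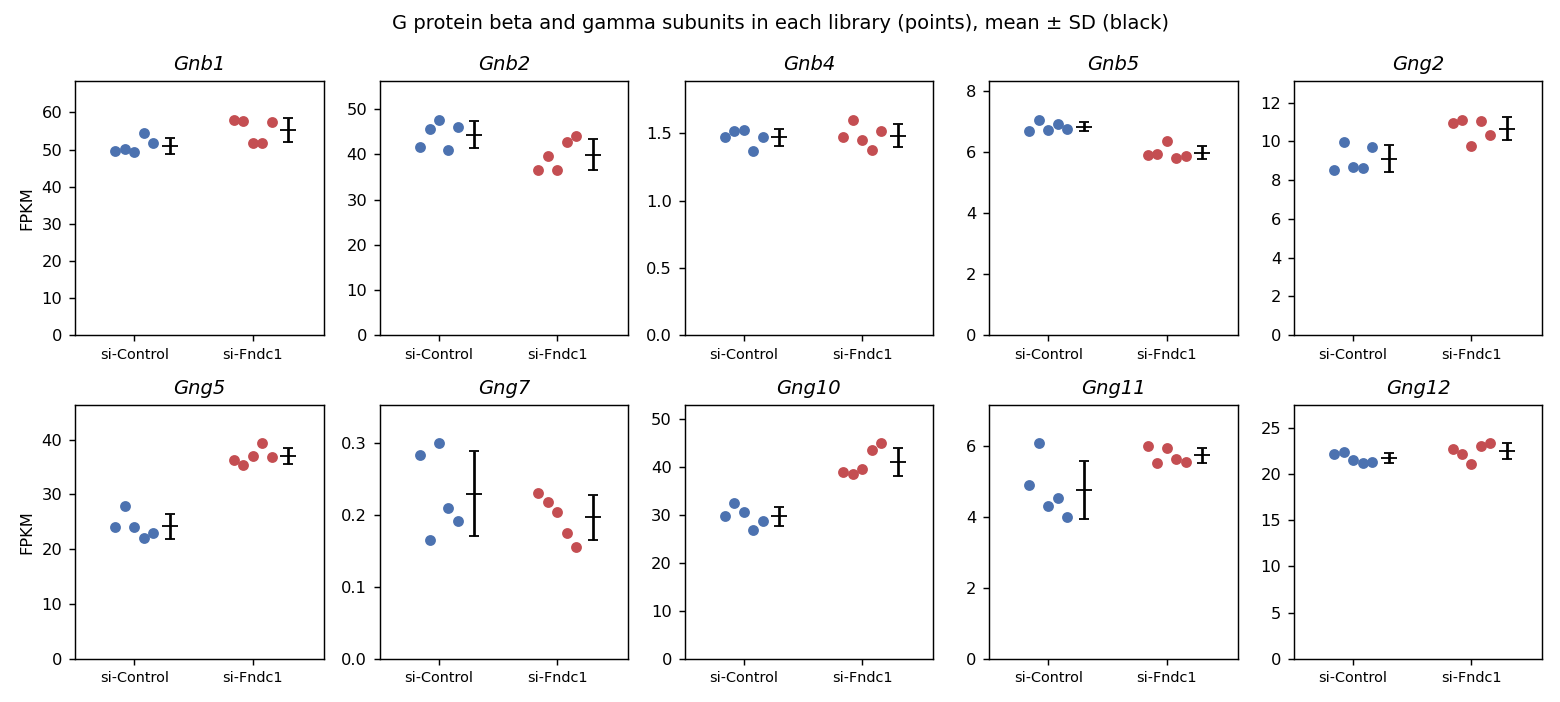
FPKM (y axis, from 0, a scale of its own for each gene) of the 10 beta and gamma genes in each of 5 si-Control (blue) and 5 si-Fndc1 (red) libraries, with the mean ± SD in black. The points of the groups are apart for Gng5, Gng10 and Gnb5 and overlap for the other genes.

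Gng5, which encodes a gamma subunit made in most tissues, changed most. Its level in the si-Control libraries 1 to 5 was 24.0, 27.9, 24.0, 22.1 and 22.9 FPKM, and in the si-Fndc1 libraries it was 36.3, 35.4, 37.0, 39.3 and 36.9 FPKM. Every si-Fndc1 library lay above every si-Control library, with means of 24.2 ± 2.24 and 37.0 ± 1.44 FPKM (SD, n = 5 each). The level was thus 53.0% higher, and the log2 fold change was 0.62 (SE 0.06, 95% interval 0.49 to 0.75, edgeR adjusted p = 4.55e-05). The exact two-sided permutation test on FPKM gave p = 0.00794, the smallest that 5 libraries against 5 allow, and 0.0316 after adjustment over all tested genes.

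Gng10, another broadly expressed gamma gene, rose as well. The si-Control libraries held 29.8, 32.5, 30.7, 27.0 and 28.8 FPKM and the si-Fndc1 libraries 39.0, 38.6, 39.7, 43.6 and 45.0 FPKM. Again the groups did not overlap. The mean went from 29.7 ± 2.08 to 41.2 ± 2.90 FPKM (SD, n = 5 each). The rise was 38.5%, or 0.48 on the log2 scale (SE 0.06, 95% interval 0.34 to 0.61, edgeR adjusted p = 0.000208). The calls of Gng5 and Gng10 were kept in each of the 22 alternative fits, but their log2 fold changes were 0.31 and 0.20 with an offset for GC content and length, and with the replicate block added to that offset the adjusted p of Gng10 was 0.0481.

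Gnb5 was the beta gene that fell. It stood at 6.67, 7.05, 6.73, 6.91 and 6.76 FPKM in si-Control and at 5.89, 5.94, 6.35, 5.81 and 5.86 FPKM in si-Fndc1. The highest si-Fndc1 library, replicate 3, was still below the lowest si-Control library. Means were 6.83 ± 0.154 and 5.97 ± 0.215 FPKM (SD, n = 5 each), and the fitted log2 fold change was -0.18 (SE 0.04, 95% interval -0.28 to -0.09, edgeR adjusted p = 0.00849). This call too was made in each of the 22 alternative fits. With Gng5 and Gng10, Gnb5 made 3 of 9 tested members whose FPKM did not overlap between the groups, against 25.1% of all tested genes.

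None of the RGS partners of Gnb5 reached the level needed for a test. All 6 genes of that group (Rgs6, Rgs7, Rgs9, Rgs11 and the anchor genes Rgs7bp and Rgs9bp) were below the filter. Their summed level was 0.181 to 0.371 FPKM in control libraries and 0.179 to 0.359 FPKM after knockdown. Rgs11 was the most abundant of them, with 40 to 101 counts per library, and Rgs9 had none.

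Gng2, the gamma gene that the study names, rose by less. The si-Control libraries held 8.55, 9.98, 8.67, 8.61 and 9.73 FPKM and the si-Fndc1 libraries 11.0, 11.1, 9.78, 11.1 and 10.3 FPKM. All si-Fndc1 libraries but replicate 3 were above every control library. The mean rose from 9.11 ± 0.687 to 10.7 ± 0.584 FPKM (SD, n = 5 each), by 16.9%, or 0.23 on the log2 scale (SE 0.06, 95% interval 0.10 to 0.36, edgeR adjusted p = 0.0108). The call was not kept with an offset for GC content and length, where the log2 fold change was 0.08 (adjusted p = 0.340). The exact two-sided permutation test gave p = 0.0159, or 0.0509 after adjustment over all tested genes. The 3 tested genes whose log2(CPM + 0.5) followed that of Gng2 most closely over the 10 libraries were Prorsd1 (Pearson r = 0.958), Pum3 (r = 0.940) and Timp1 (r = 0.938), of which Timp1 encodes a secreted inhibitor of metalloproteinases. These correlations run over both groups and so hold the difference between them. Prorsd1 stood at 2.98 and 4.40 FPKM, Pum3 at 6.32 and 7.09 FPKM and Timp1 at 327.6 and 362.0 FPKM in si-Control and si-Fndc1.

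Gnb1, the member with the highest mean FPKM, was called by a narrow margin. It measured 49.5, 50.1, 49.3, 54.6 and 51.6 FPKM in si-Control and 58.0, 57.8, 51.6, 51.7 and 57.3 FPKM in si-Fndc1. Only si-Fndc1 libraries 1, 2 and 5 exceeded all the control libraries. With means of 51.0 ± 2.18 and 55.3 ± 3.32 FPKM (SD, n = 5 each), the log2 fold change was 0.12 (SE 0.04, 95% interval 0.03 to 0.22, edgeR adjusted p = 0.0497). The call was lost in 7 of the 10 fits that left out 1 library, namely without si-Control replicate 1, 2, 3 or 5 or si-Fndc1 replicate 1, 2 or 5, and the adjusted p ranged from 0.0287 to 0.107 over the 10. The exact two-sided permutation test on FPKM gave p = 0.0556.

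Gnb2, the other abundant beta gene, moved the opposite way without passing the test. Its level was 41.7, 45.6, 47.6, 41.0 and 46.0 FPKM in si-Control and 36.5, 39.7, 36.6, 42.7 and 44.0 FPKM in si-Fndc1, and the groups overlapped. Means were 44.4 ± 2.89 and 39.9 ± 3.44 FPKM (SD, n = 5 each), and the fitted log2 fold change was -0.15 (95% interval -0.29 to -0.01, edgeR adjusted p = 0.0964). Epo, the erythropoietin gene, is annotated across the Gnb2 locus on the same strand, and it held 352 to 825 counts in each control library, against 0 to 256 after knockdown, where 3 libraries had none. Gnb2 held 9347 to 12828 counts. How reads in the shared stretch were assigned was not tested, so the level of Gnb2 is uncertain. For the remaining members the overlapping genes and named pseudogenes held few reads, the most being 25 counts in a library for a long noncoding RNA at Gnb5. Gm20503, on the same strand as Gng10, held 0 to 23 counts in control libraries and 0 after knockdown. The pseudogene Gng5-ps held up to 20. Against these stood at least 1143 counts of Gnb5, 2806 of Gng10 and 4698 of Gng5.

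The call of Gng11, the member with the farnesyl-type end, depended on the library set and on the fit. The si-Control libraries held 4.91, 6.07, 4.29, 4.52 and 4.00 FPKM and the si-Fndc1 libraries 5.99, 5.53, 5.94, 5.63 and 5.55 FPKM. Control replicate 2 was higher than all 5 si-Fndc1 libraries and the other control libraries were below them. The log2 fold change was 0.27 (SE 0.11, 95% interval 0.02 to 0.52, edgeR adjusted p = 0.0853), and without control replicate 2 it was 0.38 with an adjusted p of 0.00946. With all 10 libraries it was called in the 3 limma fits (adjusted p = 0.0498, 0.0490 and 0.0449), whereas with the GC content and length offset it was 0.11 (edgeR adjusted p = 0.472). The exact two-sided permutation test on FPKM gave p = 0.0476, or 0.112 after adjustment over all tested genes. With only 273 to 442 counts per library, this gene had the widest interval of the tested members.

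Gng12 and Gnb4 were not called. Gng12, a widely expressed gamma gene, had means of 21.7 ± 0.556 and 22.5 ± 0.855 FPKM (SD, n = 5 each), with a 95% interval of the log2 fold change from -0.02 to 0.13 (edgeR adjusted p = 0.209). Gnb4 was at 1.47 ± 0.0620 and 1.48 ± 0.0830 FPKM (SD, n = 5 each), with an interval from -0.10 to 0.14 (edgeR adjusted p = 0.800). These intervals do not show that the levels are equal, and in the fit with an offset for GC content and length Gng12 was called lower, at -0.11 (adjusted p = 0.0142). Gng7, known chiefly from brain, was below the filter with 37 to 92 counts per library and means of 0.230 ± 0.0589 and 0.197 ± 0.0313 FPKM (SD, n = 5 each, exact two-sided permutation p = 0.310).

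The members differ in base composition, and a fit that takes it into account moved several of their fold changes. Among the tested members the longest vM1 transcript of Gng5 has the lowest GC content, 39.4%, and that of Gnb2 the highest, 59.9%. In a fit with an offset for GC content and length in each library, which was possible for 11185 of the 13548 genes (82.6%), 22.6% of genes were called. Gng5 and Gng10 were still called higher with smaller log2 fold changes of 0.31 (edgeR adjusted p = 0.000799) and 0.20 (0.00687), and Gnb5 was still called lower, at -0.23 (0.00258). The calls of Gng2 and Gnb1 were not kept, at 0.08 (0.340) and 0.08 (0.197). Gng12 turned to -0.11 and was called lower (0.0142), and Gnb2 turned to 0.07 (0.441). Without the offset the same 11185 genes gave the 4 higher calls and the 1 lower call of the full set. Whether base composition is the cause of the shift was not tested.

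**Figure D2:**
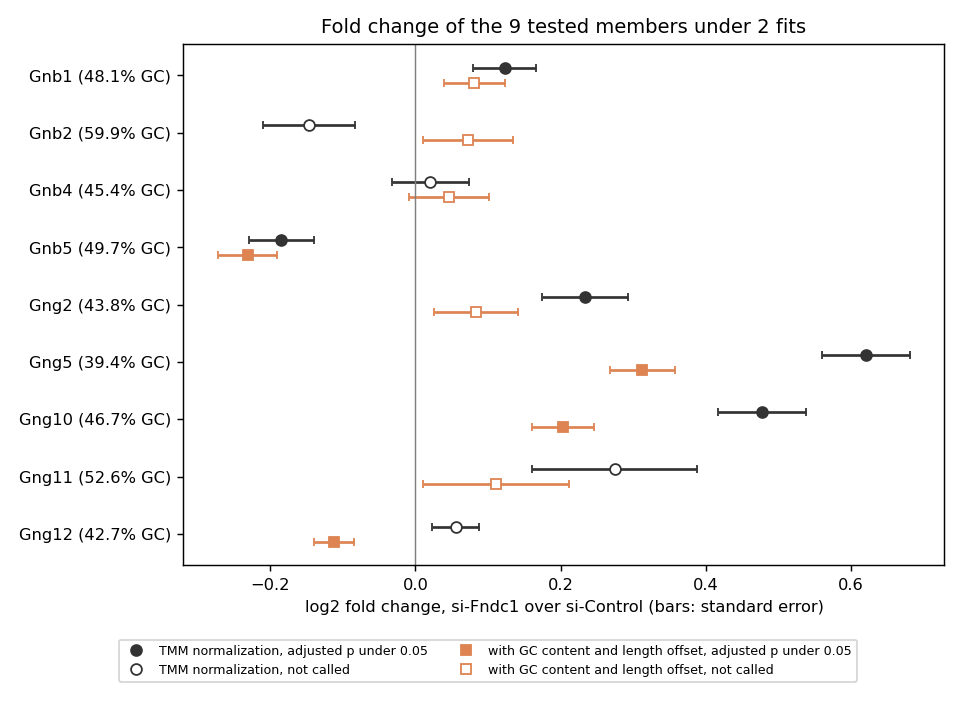
Log2 fold change of the 9 tested members, si-Fndc1 over si-Control (x axis), with its standard error, from the TMM-normalized fit (black) and from the fit with an offset for GC content and length (orange). Filled symbols have an edgeR adjusted p below 0.05, and the labels give the GC content of each gene. Gng5, Gng10 and Gnb5 are filled in both fits, and Gng12 and Gnb2 lie on opposite sides of 0 in the 2 fits.

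Because FPKM is scaled to length, the members could be set in order. In si-Control the order of means was Gnb1, Gnb2, Gng10, Gng5, Gng12, Gng2, Gnb5, Gng11, Gnb4 and Gng7, and the ranges of neighbours overlapped only between Gng10 and Gng5 and between Gng5 and Gng12. In si-Fndc1 Gng10 came second, ahead of Gnb2, but the range of Gnb2 overlapped those of both Gng10 and Gng5, as the range of Gnb5 did that of Gng11. The ratio of Gng10 to Gnb2 in FPKM was 0.671 ± 0.0407 in si-Control and 1.03 ± 0.0453 in si-Fndc1 (SD, n = 5 each). An order across genes depends on the lengths behind FPKM. The deposited values imply a length of 3075 bases for Gng5, where its longest vM1 transcript has 2419, and 14133 for Gnb4, where the longest has 5997.

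The summed level of the beta genes was 103.7 ± 2.53 FPKM without and 102.6 ± 4.68 FPKM with knockdown (SD, n = 5 each), while that of the gamma genes was 89.7 ± 5.77 and 117.2 ± 4.47 FPKM. The ratio of gamma to beta was 0.805 to 0.951 in the si-Control libraries and 1.08 to 1.21 in the si-Fndc1 libraries. These sums restate the single-gene changes and were not tested. Neither the sums nor the shares below include the offset for GC content and length. With that offset the log2 fold changes of Gng5 and Gng10 were smaller, at 0.31 and 0.20. Those of Gng12 and Gnb2 changed sign, to -0.11 and 0.07. The size of the shift in the ratio thus depends on the normalization. The sums describe RNA, and in whole cultures a change in the share of a cell type cannot be told apart from a change of RNA per cell.

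Within the gamma sum, the share of Gng5 went from 26.9 ± 0.738% to 31.6 ± 0.782% and that of Gng10 from 33.1 ± 0.732% to 35.1 ± 1.29% (SD, n = 5 each). Gng12, whose mean level was 3.42% higher, went from 24.3 ± 1.02% to 19.2 ± 0.505%. The share of Gng2 was 10.2 ± 0.661% and 9.10 ± 0.573%, so that its rise in level did not bring a larger share. Within the beta sum Gnb1 held 49.2 ± 2.16% in si-Control and 53.9 ± 2.30% in si-Fndc1, and Gnb2 42.8 ± 2.20% and 38.8 ± 2.44%. Gnb5 held 6.58 ± 0.180% and 5.83 ± 0.459%, and Gnb4 1.42 ± 0.0651% and 1.45 ± 0.0726%. With counts per kilobase of the longest vM1 transcript, Gnb2 exceeded Gnb1 in si-Control (49.5% against 42.3%), so the order of these 2 genes rests on the lengths used.

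**Figure D3:**
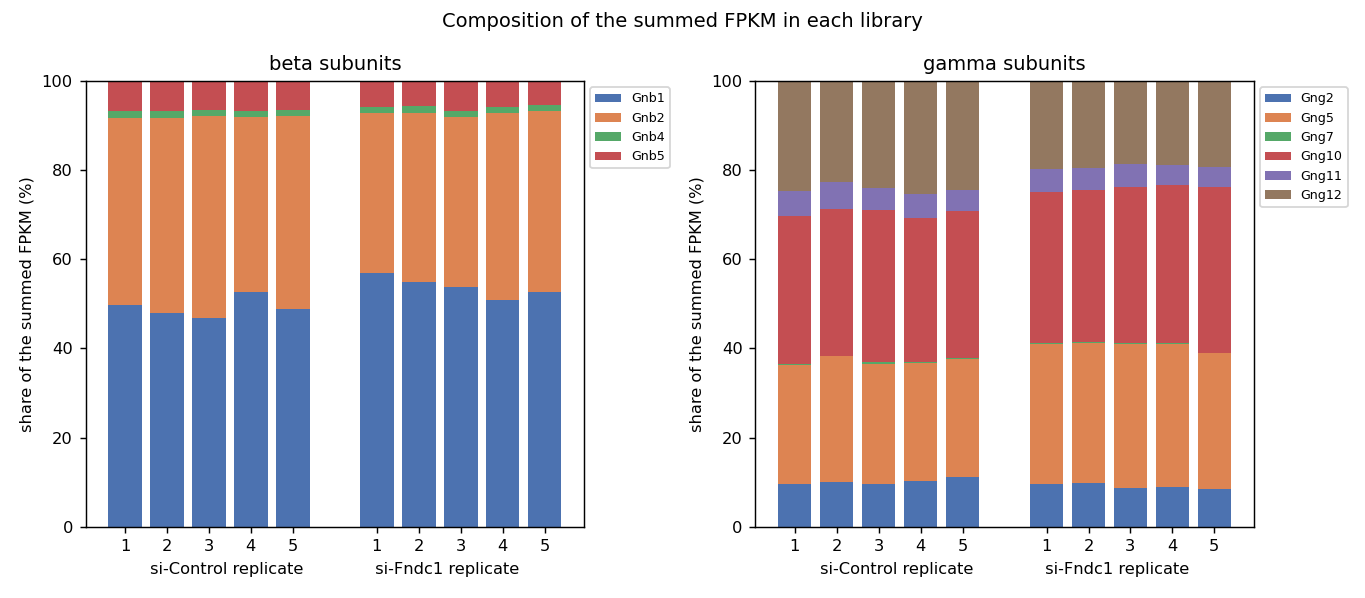
Share of the summed FPKM (y axis, percent) held by each beta gene (left) and each gamma gene (right) in every library, with si-Control replicates 1 to 5 and then si-Fndc1 replicates 1 to 5 on the x axis. Gng5 held 26.3% to 28.2% of the gamma sum in control libraries and 30.4% to 32.5% after knockdown, and Gng12 22.6% to 25.4% and 18.6% to 19.7%.

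The genes that act with the dimer were examined in lists chosen by function. Alpha subunits, which bind the dimer in the resting trimer, were tested for 8 of 13 genes, with 1 called higher and 3 lower, where 17.3% of all tested genes were called higher and 17.2% lower. Gnai3, an inhibitory alpha subunit, was at 36.7 ± 1.84 FPKM in control cells and rose to 41.7 ± 2.11 (SD, n = 5 each), by 0.19 on the log2 scale (edgeR adjusted p = 0.00655). Gna12 and Gnao1 fell, with log2 fold changes of -0.32 (adjusted p = 0.000471) and -0.26 (adjusted p = 9.23e-05). With the GC content and length offset the balance was the reverse, 3 higher and 1 lower against 11.6% and 11.0% of all genes in that fit. None of the 3 genes named above was called there (-0.04, -0.14 and -0.07). Gna13 was called lower in both fits, at -0.17 (edgeR adjusted p = 0.00451) and at -0.22 with the offset (0.00147).

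Folding of the beta subunit and its assembly with gamma need the chaperonin CCT and its helper phosducin-like protein. Of 14 genes in that list 12 were tested, and 7 were called higher and none lower, with a median log2 fold change of 0.16, where 17.3% and 17.2% of all genes were called higher and lower and the median was 0.00. The CCT subunits Cct4, Cct6a and Tcp1 moved most, at 0.37 (edgeR adjusted p = 0.00776), 0.26 (0.000522) and 0.22 (9.23e-05). CCT folds actin and tubulin as well and is not particular to G proteins. With the offset 3 of the 12 were called higher and none lower (11.6% and 11.0% of all genes), among them Tcp1 at 0.17 and Cct6a at 0.15, and Cct4 was at 0.25 with an adjusted p of 0.0544.

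The enzymes that attach and trim the lipid end of the gamma subunits were all expressed, and 1 of 6 was called higher and 1 lower, close to the 34.4% called over all genes. Icmt, which methylates the end after the lipid is attached, was lower at 18.5 ± 0.411 FPKM than in control cells at 21.5 ± 0.511 FPKM (SD, n = 5 each), with a fitted difference of -0.21 on the log2 scale (edgeR adjusted p = 0.000346). Zmpste24, a protease of the same route, rose by 0.11 on the log2 scale (edgeR adjusted p = 0.0195). With the offset Icmt was still called lower, at -0.09 (adjusted p = 0.0282), while Zmpste24 was at -0.03. In that fit 1 of the 6 was called higher and 3 lower, against 11.6% and 11.0% of all its genes. Nothing particular to so few enzymes is read from these counts.

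Among 18 effector genes of the dimer only 5 were tested, and 3 of these were called lower and none higher, against 17.2% and 17.3% of all tested genes. Nothing particular to so few effectors is read from this count. Adcy7, an adenylyl cyclase that the dimer can stimulate, was lower at 49.0 ± 2.22 FPKM than in control cells at 62.1 ± 6.10 FPKM (SD, n = 5 each), with a fitted difference of -0.33 on the log2 scale (edgeR adjusted p = 0.00177). Plcb3, a phospholipase C activated by the dimer, and Grk2, a receptor kinase that the dimer recruits, fell with log2 fold changes of -0.25 (0.000178) and -0.20 (0.0135). With the offset Adcy7 alone was called, at -0.21 (adjusted p = 0.0256), and Plcb3 and Grk2 were at -0.02 and -0.03. Of 15 other RGS genes 6 were tested and 1 was called, as lower, where 17.2% of all tested genes were called lower. This was Rgs12, with a log2 fold change of -0.38 (edgeR adjusted p = 0.00873), which was -0.19 with the offset (adjusted p = 0.176). The other beta and gamma genes of the mouse were scarce: Gng4 and Gng8 were tested and not called (edgeR adjusted p = 0.482 and 0.980), and Gnb3, Gng3, Gng13, Gngt1 and Gngt2 were below the filter.

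**Figure D4:**
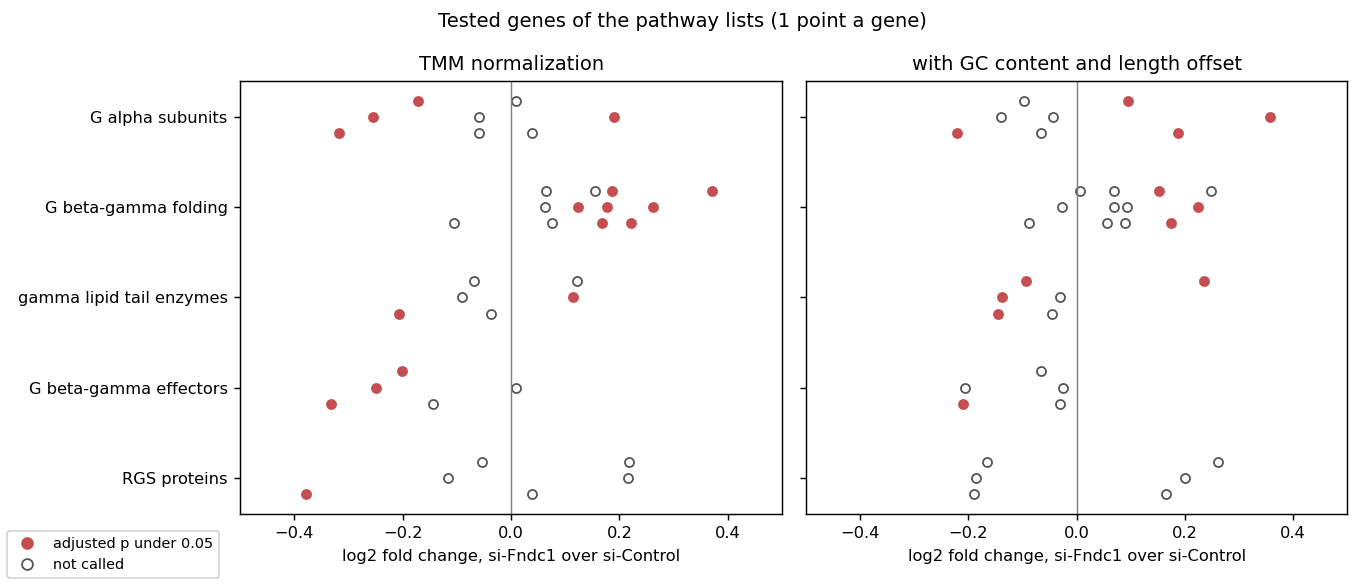
Log2 fold change, si-Fndc1 over si-Control (x axis), of the tested genes of 5 lists (1 point a gene, spread vertically for legibility), from the TMM-normalized fit (left) and with the offset for GC content and length (right). Red points have an edgeR adjusted p below 0.05. Called folding genes were 7 higher on the left and 3 higher on the right, and called effector genes 3 lower on the left and 1 lower on the right, where 17.3% and 17.2% of all genes were called higher and lower on the left and 11.6% and 11.0% on the right.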

How the data were processed

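RNA-seq was performed on 5 si-Control and 5 si-Fndc1 C2C12 libraries, grouped by the sample labels. The deposited table holds raw read counts per gene and FPKM, both made by the authors, with 0.0001 FPKM listed where a gene had no read. The sources differ on the aligner and build, and the submitters' processing notes name cutadapt 1.9, FastQC and GRCm39. Counts were fitted with edgeR 4.0.16 (R 4.3.3) by the quasi-likelihood test with TMM normalization on the 13548 genes with a mean of at least 0.5 FPKM, with Benjamini-Hochberg adjustment over all of them and a threshold of 0.05. FPKM of single genes were compared by exact two-sided permutation tests over the 10 libraries. The fit was also run on simulated counts, in which a smaller share of genes was changed than was called here, so nothing is concluded from that run. The alternatives were DESeq2 1.42.0, other scalings and filters, limma 3.58.1 on log2(FPKM + 1) or log2(FPKM + 0.1), a replicate block, an offset per library from splines (5 degrees of freedom each) on GC content and length, and leaving out each library. The coding sequences were read from GENCODE vM1. Members and gene lists were chosen with earlier results of these data known. All members and Fndc1 are named. From each list of genes that act with the dimer, at most 3 called genes were chosen by size of the log2 fold change. Gna13 was added since it was called lower in both fits. Strand use in counting is not given in the sources used here.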

Additional observations from a re-analysis of the deposited data

Results flagged for a closer look

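In the si-Fndc1 group, Gnb5 in replicate 3 measured 6.35 FPKM, whereas the other 4 libraries lay between 5.81 and 5.94 FPKM. Its gap to the nearest library was 0.758 of the range of the group, above Dixon's 95% limit for 5 libraries. Of the 22 groups of libraries examined, chance would mark about 1 in 20. The value still lay below every si-Control library, and without replicate 3 the call of Gnb5 was kept.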

How the results depend on the processing

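Over 22 alternatives, Gng5, Gng10, Gnb5 and Fndc1 kept their direction and their call in every one, with log2 fold changes of 0.31 to 0.68, 0.20 to 0.51, -0.23 to -0.16 and -0.45 to -0.22. Gng2 kept its call in 20 and Gnb1 in 7. The number of members called stayed at 4 or 5 and of those called higher at 3 or 4 when single libraries were left out, with 1 called lower throughout and Fndc1 between -0.45 and -0.36. With the GC content and length offset 2 members were called higher and 2 lower, and Gnb2 (0.0725) and Gng12 (-0.112) changed direction. With the replicate block and that offset together 3 were called, 2 of them higher, with Gnb2 at 0.0696 and Gng12 at -0.112. Quantile-normalized log2(FPKM + 1) called 2 lower, Gnb2 and Gnb5, and put Gnb4 at -0.0165. Gnb4 also changed sign without si-Control replicate 4 (-0.00524) or si-Fndc1 replicate 2 (-0.00925), within a range up to 0.0474 over the leave-outs, and its FPKM difference did so at -0.0119 and -0.0156, within a range up to 0.0405. Same-numbered libraries did not deviate together (r = -0.04 to 0.05 over 5 pairs, -0.09 to 0.09 over 20 other pairs), so no pairing by number was seen. Whether same-numbered libraries share a culture or a day cannot be told from these correlations. The replicate block alone gave 4 called members, losing Gnb1, and 3572 calls in place of 4663 over all genes. In the offset fit 2532 of 11185 genes were called, against 4244 of the same genes without it. That fit without the offset and the shares per kilobase of the longest vM1 transcript were chosen after seeing the data. The cause of these shifts was not tested. Few counts limit Gng7 and Gng11.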
